A study of Rattus norvegicus with 9 samples.

Results

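Transcription factors that set and maintain oligodendrocyte identity were followed across every array of the series. The genes named were Sox10, Sox8, Olig1, Olig2, Nkx2-2, Nkx6-2, Tcf7l2, Myrf, Zfp488 and Myt1, and a probe was taken for a gene when its annotated symbol was one of these 10. This gave 12 of the 35129 probes on the array, which covered 7 of the 10 genes. Tcf7l2 had 4 probes, Olig1 and Myt1 had 2 each, and Sox10, Olig2, Nkx6-2 and Myrf had 1 each. Among probes with 1 symbol, updated by Entrez identifier, none carried the symbol Sox8, Nkx2-2 or Zfp488. The expression of these 3 genes was not analysed here. Another 18099 probes carried no gene name.

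The arrays measured total RNA of oligodendrocyte progenitor cells from newborn rats, in 3 populations defined by surface antigens. The O4 population carried the antigen of the O4 antibody, which recognises sulfatide, and lacked the proteoglycan NG2. The NG2/A2B5 population carried both NG2 and the ganglioside antigen A2B5, and the NG2 population carried NG2 alone. No strain, genotype or treatment is named for any population, so the groups differ, as far as the labels tell, only in their surface antigens. Each population was measured on 3 arrays that carry the numerals I, II and III. Although 3 cultures were made, no label says which array came from which. P-values therefore measure only the spread between these 9 arrays, which may be partly technical.

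These factors act in layers. Olig2, a basic helix-loop-helix protein, specifies the lineage and is needed for the expression of Sox10, a high-mobility-group factor kept from the progenitor to the myelinating cell. Olig1, Nkx2-2, Nkx6-2, Tcf7l2, Zfp488 and Myt1 then modulate the passage from progenitor to differentiating cell. Myrf, a membrane-bound factor that cuts itself free to reach the nucleus, is induced as progenitors leave the cell cycle and, together with Sox10, drives the genes of the myelin sheath. The O4 antigen appears later in this course than NG2 and A2B5.

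The RefSeq promoter table, which uses assembly GRCr8, held 6 of the 10 genes: Olig2, Nkx2-2, Nkx6-2, Tcf7l2, Zfp488 and Myt1. The 250 bases before the start of transcription are shown for Nkx6-2 and Tcf7l2, because these were the factors whose spread over the arrays lay most between populations. The Nkx6-2 window is chr1:203813123-203813372 on the minus strand and the Tcf7l2 window is chr1:264791085-264791334 on the plus strand, both written 5′ to 3′. Capitals mark the matches to the motifs searched.
Nkx6-2: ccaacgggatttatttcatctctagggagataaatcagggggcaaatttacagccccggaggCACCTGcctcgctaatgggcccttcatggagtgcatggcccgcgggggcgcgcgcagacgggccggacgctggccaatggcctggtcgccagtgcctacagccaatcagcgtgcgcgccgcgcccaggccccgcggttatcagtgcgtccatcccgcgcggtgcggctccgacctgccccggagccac
Tcf7l2: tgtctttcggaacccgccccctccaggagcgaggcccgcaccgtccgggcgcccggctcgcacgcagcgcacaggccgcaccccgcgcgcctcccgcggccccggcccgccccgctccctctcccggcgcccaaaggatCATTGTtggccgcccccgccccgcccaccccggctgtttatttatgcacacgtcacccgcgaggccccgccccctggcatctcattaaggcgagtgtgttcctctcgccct
Both strands were searched for the E box CANNTG of Olig factors and their partners, the Sox core ACAATG, the Tcf site ATCAAAG and the homeodomain site TAATTA. Nkx6-2 held 1 E box, CACCTG, 188 bases before the start. Tcf7l2 held 1 Sox core, read as CATTGT on the strand shown, 111 bases before the start. Among 33469 promoter windows of the same length, 65.5% held an E box, 11.1% a Sox core, 3.15% a Tcf site and 4.86% the homeodomain site. Of the 6 windows, that of Myt1 held 2 E boxes and those of Olig2, Nkx2-2 and Zfp488 held none of these letters. No matches overlapped. A match is a description of letters and not evidence of binding.

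The values are scaled fluorescence intensities, given here as log2 unless named as intensities. Array medians lay between 1.05 and 1.07 in intensity, and each array had a value for 34926 to 34975 probes. A probe was called dim on an array where it lay below that array's 25th percentile. Of the 4 progenitor markers measured, Cspg4 (which encodes NG2), Ptprz1 and Cspg5 were above the array median on all 9 arrays, while Pdgfra was below it on all 9. Of the 7 oligodendrocyte markers measured, only Mag and Cnp were above it on all 9. Of the 9 astrocyte markers measured, only Aqp4, Slc1a3, Aldoc and S100b were. Of the 10 microglia markers, C1qa, C1qb and C1qc were dim on all 9, while Itgam was above the median on all 9. So were Dcx and Gad1 of 7 neuron markers measured and Flt1 of 5 endothelial markers. Col1a1 and Col1a2 of 7 pericyte and fibroblast markers, and Egr2, Prx and Cdh19 of 6 Schwann cell markers, were as well. The number of arrays limits the precision of every comparison.

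Sox10 was well above the array median on every array. Its values were 5.18, 4.89 and 5.57 on O4 arrays I, II and III, then 4.96, 5.01 and 5.35 in NG2/A2B5, and 5.20, 5.13 and 5.49 in NG2. The 3 populations overlapped, and array III was the highest of each. The order of the means, from low to high, was NG2/A2B5 at 5.11 ± 0.21 (SD, n = 3), O4 at 5.21 ± 0.34 and NG2 at 5.27 ± 0.19, and no neighbours in this order were further apart than their spread.

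Olig1 and Olig2 are adjacent genes that encode related helix-loop-helix proteins. The brighter Olig1 probe had intensities of 7.29, 9.12 and 7.30 on O4 arrays I, II and III, 6.32, 8.17 and 9.24 in NG2/A2B5, and 7.92, 7.98 and 6.36 in NG2. No population stood apart, and the log2 means of the populations lay between 2.88 and 2.97. Olig2 read -0.90, -0.50 and -1.01 in O4, -0.72, -0.71 and -1.78 in NG2/A2B5, and -1.09, -0.50 and -1.11 in NG2. This single Olig2 probe was below the array median on all 9 arrays and dim on none, and its lowest value was on NG2/A2B5 array III. From low to high its means were -1.07 ± 0.61 (SD, n = 3) in NG2/A2B5, -0.90 ± 0.35 in NG2 and -0.81 ± 0.27 in O4, closer together than their spread. Across the 9 arrays the neighbouring genes Olig1 and Olig2 had r = -0.15, a description of arrays that share 3 populations and 3 numerals.

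Nkx6-2, a homeodomain repressor linked to the late steps of myelination, showed the widest gap between populations among the 7 factors. It read -0.81, -0.27 and -1.11 on O4 arrays I, II and III, -1.93, -2.26 and -1.66 in NG2/A2B5, and -1.48, -0.36 and -1.04 in NG2. Every NG2/A2B5 array was below every array of both other populations, while O4 and NG2 overlapped. The probe lay below the array median on all 9 arrays and was dim on NG2/A2B5 array II, so these are differences within a low signal.

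Tcf7l2, a Wnt effector that is switched on as progenitors begin to differentiate, was read by 4 probes, and the brightest stands for the gene. It gave 5.46, 4.97 and 5.70 on O4 arrays I, II and III, 5.66, 5.65 and 6.14 in NG2/A2B5, and 5.65, 5.65 and 5.91 in NG2. Within each numeral the O4 array was the lowest of the 3, although the ranges of the populations overlapped. Means were 5.38 ± 0.37 (SD, n = 3) in O4, 5.74 ± 0.15 in NG2 and 5.82 ± 0.28 in NG2/A2B5, and the last 2 did not differ beyond their spread.

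Myrf varied more over the 9 arrays than the other 6 factors, with a range of 2.30 on the log2 scale. Its intensities were 17.6, 8.58 and 24.8 on O4 arrays I, II and III, 16.4, 8.20 and 19.6 in NG2/A2B5, and 13.0, 5.05 and 24.4 in NG2. In every population array II was the lowest and array III the highest, and the ranges of the 3 populations overlapped, with NG2 reaching lowest. On the log2 scale the means were 3.55 ± 1.14 (SD, n = 3) for NG2, 3.79 ± 0.66 for NG2/A2B5 and 3.96 ± 0.78 for O4, steps smaller than the SDs.

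Myt1, a zinc-finger protein of proliferating and early differentiating progenitors, was near the array median. Its brighter probe read 0.60, 0.67 and 0.23 on O4 arrays I, II and III, 0.19, 1.14 and 0.67 in NG2/A2B5, and 0.70, 0.96 and 0.46 in NG2. The populations overlapped, and array II was the highest of each.

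**Figure D1:**
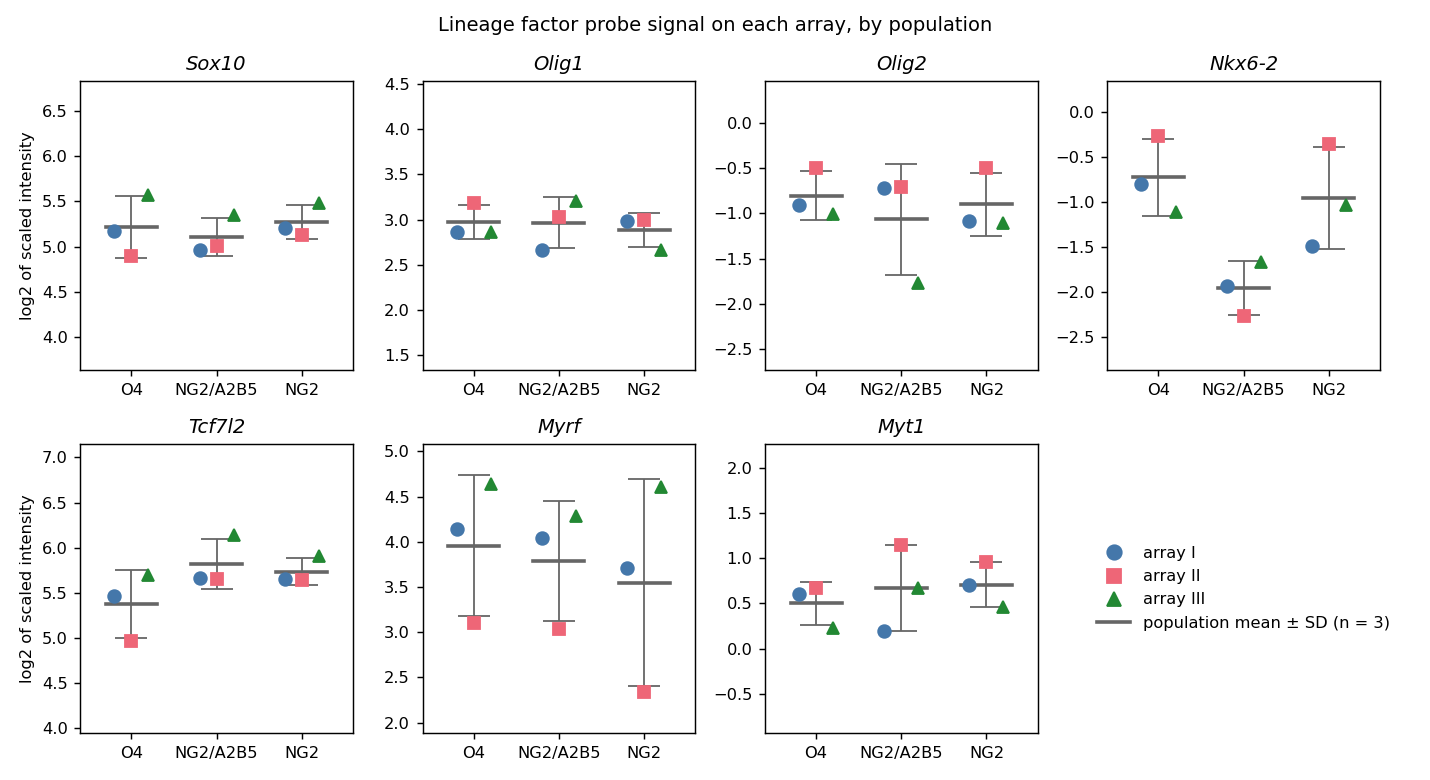
Log2 scaled intensity (vertical axis) of the brightest probe of each of the 7 lineage factors on each of the 9 arrays, by population (horizontal axis), with the numerals told apart by marker. Nkx6-2 is lowest on all 3 NG2/A2B5 arrays, and Myrf is lowest on array II and highest on array III in each population.

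The first comparison asked whether the factors differed between the progenitor populations. With limma and Benjamini-Hochberg adjustment over all genes, 0 of the 7 factors changed in O4 against NG2, where 0.00822% of 12165 genes were called at an adjusted p under 0.05. None of the 7 was called in O4 against NG2/A2B5, where the share of all genes was also 0.00822%, nor in NG2/A2B5 against NG2, where it was 0% of 12166. At an unadjusted p under 0.05 the factors numbered 0 in O4 against NG2, 1 in O4 against NG2/A2B5 and 1 in NG2/A2B5 against NG2, against 8%, 3.28% and 4.48% of all genes. That 1 gene was Nkx6-2 each time, in a fit with no term for numerals. In bulk RNA, fewer cells of a type and less RNA per cell cannot be told apart.

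Nkx6-2 was 1.22 higher in O4 than in NG2/A2B5 on the log2 scale (SE 0.34, 95% interval 0.44 to 2.01), a 2.34-fold difference. The O4 array exceeded the NG2/A2B5 array within each numeral, by 1.13, 1.99 and 0.55 for I, II and III. The O4 mean was -0.73 ± 0.43 (SD, n = 3), against -1.95 ± 0.30 for NG2/A2B5 and -0.96 ± 0.57 for NG2. The adjusted p was 0.9997, so the difference did not pass the test over all genes. The NG2/A2B5 minus NG2 difference was -0.99 (interval -1.78 to -0.20, adjusted p = 0.970). Of the 7 factors, Nkx6-2 alone had arrays that did not overlap, in both of these contrasts, where 8.67% and 10.2% of all genes did so. In O4 against NG2 none of the 7 did, beside 14% of all genes. The summed intensity of the 10 microglia markers was 7.34 to 10.4 on O4 arrays, 5.79 to 7.12 on NG2/A2B5 arrays and 6.06 to 7.17 on NG2 arrays, and their part in the Nkx6-2 values was not tested. Of those markers, Itgam alone was above the median on all arrays. On arrays I, II and III Itgam read 2.70, 2.99 and 2.39 for O4, against 2.44, 1.96 and 2.04 for NG2/A2B5. Not all of the markers went this way. Csf1r read -1.09, -1.25 and -1.46 for O4, against -0.97, -1.30 and -0.81 for NG2/A2B5, while C1qa, C1qb and C1qc were dim throughout. Sums of the other marker lists overlapped between populations. Whether O4 held more microglia was not tested.

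Tcf7l2 differed by -0.44 in O4 minus NG2/A2B5 (SE 0.23, interval -0.98 to 0.10, adjusted p = 0.9997) and by -0.36 in O4 minus NG2 (interval -0.90 to 0.18, adjusted p = 0.734). The O4 array was lower within all 3 numerals in both contrasts. Among all genes 12.8% were lower within all 3 numerals in O4 against NG2/A2B5, and 17.8% in O4 against NG2. Neither difference passed the test, and both intervals included 0 in this fit, which had no term for numerals. With the numeral as a term, the unadjusted limma p was 0.028 in O4 minus NG2/A2B5 and 0.056 in O4 minus NG2. The adjusted p-values were 0.804 and 0.388, so neither was called. Without O4 array II the differences were -0.23 and -0.15, and without NG2/A2B5 array III the first was -0.28. With the mean of all 4 probes they were -0.10 and -0.24.

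For Sox10 the interval of O4 minus NG2 ran from -0.56 to 0.44, and for Olig1 from -0.36 to 0.55. With 3 arrays a population, differences inside these intervals could not be told from 0. The Myrf interval was wider, from -1.09 to 1.91 around a difference of 0.41, and its arrays spread over numerals within each population. Myrf was nevertheless the higher in O4 within each numeral, by 0.43, 0.77 and 0.03 over NG2 and by 0.10, 0.06 and 0.34 over NG2/A2B5, as were 20.1% and 15.8% of all genes. Olig2 and Myt1 had intervals of -0.68 to 0.87 and -0.83 to 0.42 in O4 minus NG2. The median difference of the 7 factors in O4 minus NG2 was 0.09, beside 0.02 over all genes.

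**Figure D2:**
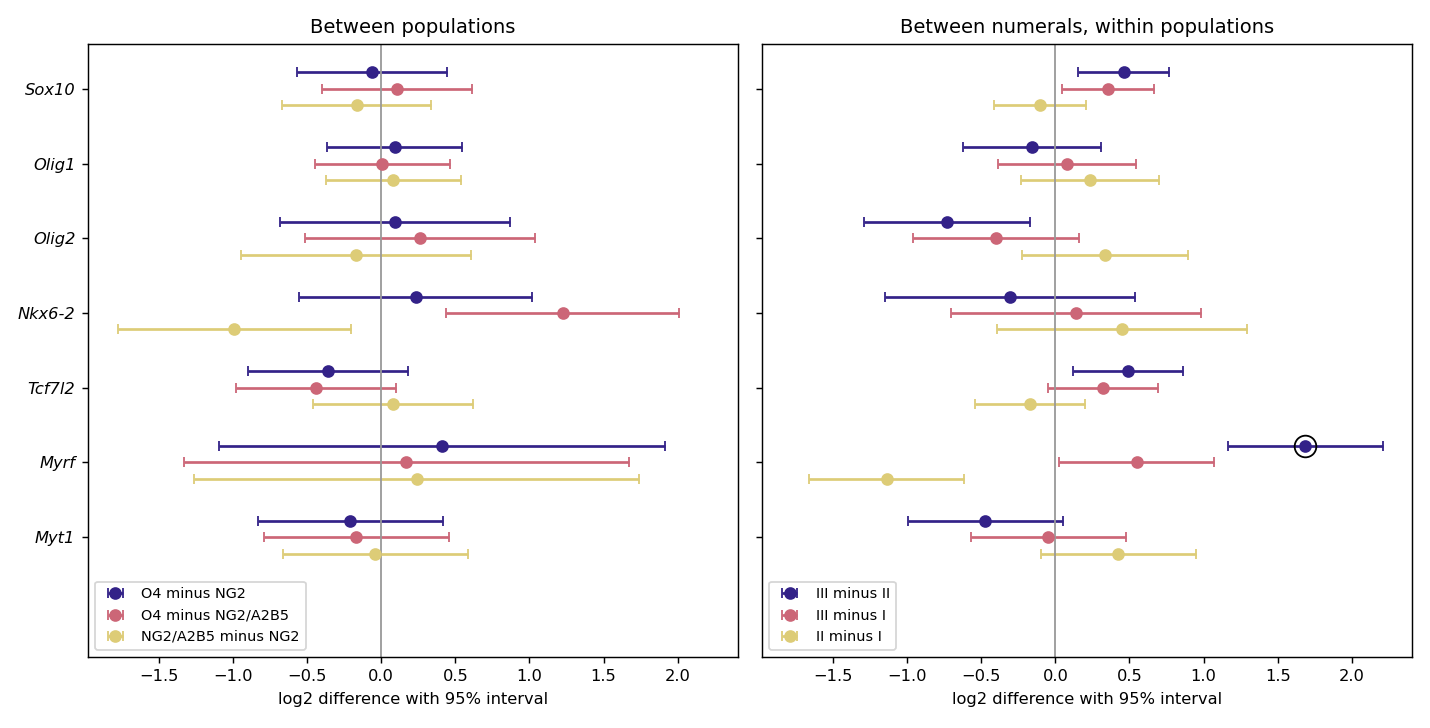
Log2 difference (horizontal axis) with its 95% interval for each of the 7 lineage factors, between populations on the left and between numerals within populations on the right. A black ring marks an adjusted p under 0.05, which is met once, by Myrf in III minus II at 1.69.

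The second comparison set the numerals against each other within populations, with population as a term of the fit. The labels do not explain what a numeral stands for. The arrays of a numeral come from different populations. If they also shared a culture, III against II would set 1 culture against 1. Its SE and p-values would then measure only how alike the difference is across populations. Myrf rose from II to III: array III exceeded array II by 1.53 among O4 arrays, by 1.25 among NG2/A2B5 arrays and by 2.27 among NG2 arrays. The fitted difference was 1.69 (SE 0.21, interval 1.16 to 2.21), a 3.22-fold difference with an adjusted p of 0.0274. In this contrast 3.56% of 12166 genes were called, 1.64% higher and 1.92% lower, and Myrf was the 1 factor of 7 called. At an unadjusted p under 0.05 the factors numbered 4 of 7, beside 23.7% of all genes. With any 1 of the 9 arrays left out, the Myrf difference stayed between 1.45 and 1.87 and the adjusted p rose to between 0.0669 and 0.124. The call was thus lost in each of those 9 fits, where at most 5 genes of the table were called.

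Sox10, the partner of Myrf at myelin genes, was 0.46 higher on III than on II (SE 0.12, adjusted p = 0.104) and Tcf7l2 was 0.49 higher (SE 0.15, adjusted p = 0.129). Olig2 differed by -0.73 (SE 0.22, adjusted p = 0.134) and Myt1 by -0.47 (SE 0.21, adjusted p = 0.249). Without NG2/A2B5 array III the Olig2 difference was -0.48. Together with Myrf these made 5 of 7 factors whose III and II arrays did not overlap, beside 26.5% of all genes. The other 2, Olig1 at -0.16 and Nkx6-2 at -0.31, overlapped. The dimmer Olig1 probe differed by -0.36, and its III arrays (2.36 to 2.52) lay below its II arrays (2.58 to 2.98). The median over the 7 factors was -0.16, and over all genes -0.08.

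Myrf on array I lay between the others. II minus I was -1.14 (SE 0.21, adjusted p = 0.105) and III minus I was 0.55 (adjusted p = 0.383). No factor was called in III minus I, where 0% of 12166 genes were, or in II minus I, where 0.23% were. At an unadjusted p under 0.05 the factors numbered 2 and 1 in these contrasts, beside 12.6% and 17.2% of all genes. Non-overlapping arrays were seen for 3 of 7 factors in III minus I, Sox10, Tcf7l2 and Myrf, beside 18.4% of all genes. In II minus I they were seen for 3 of 7, Olig1, Olig2 and Myrf, beside 21.6%. The dimmer Olig1 probe overlapped there, at 2.45 to 3.20 on I and 2.58 to 2.98 on II. Myrf and Tcf7l2 followed the order II, I, III from low to high in all 3 populations, as did 2.82% of 12025 genes. For Tcf7l2 the step from I to II was small outside O4, at -0.010 in NG2/A2B5 and -0.0060 in NG2.

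Summed marker levels of several cell types differed between the same numerals, although among the marker genes only Gfap, Aldoc and Egr2 passed the test in III minus II. The summed intensity of 9 of 10 astrocyte markers was 72.3 to 107.5 on the II arrays and 119.6 to 168.0 on the III arrays, with Gfap 1.72 (adjusted p = 0.0240) and Aldoc 1.27 (adjusted p = 0.0284) higher on III. The Gfap probe was dim on all 3 II arrays, at -3.15, -2.84 and -2.42. Of those 9 markers 5 were higher and 4 lower, and some of them, such as Slc1a3 and S100b, are also expressed in the oligodendrocyte lineage. The 4 of 5 progenitor markers measured were all higher on III, with sums of 153.6 to 236.8 on II and 237.2 to 293.6 on III. The 7 of 8 oligodendrocyte markers summed to 173.7 to 197.4 on II and 192.6 to 279.3 on III, so these ranges overlapped, with 3 markers higher and 4 lower. Sums of 7 of 11 neuron markers were 20.0 to 24.9 on II and 28.0 to 33.9 on III, while Snap25 was dim on all 9 arrays. Of those 7 markers 4 were higher and 3 lower on III and none was called; Dcx lay at 2.54 to 3.41 on II and 4.32 to 4.42 on III, and Gad1 was lower on III in each population. The sum of 6 of 7 Schwann cell markers was 24.7 to 29.8 on II and 15.5 to 17.3 on III, where Egr2 differed by -1.35 (adjusted p = 0.0351). Of these 6 markers 4 were higher and 2 lower on III, with a median difference of 0.26. Microglia, endothelium and pericyte sums overlapped between II and III. The part of these markers in the Myrf difference was not tested.

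The sum of squares over the 9 arrays was split into shares for numeral, population and the rest. For Myrf 89.2% lay between numerals and 5.11% between populations, and for Sox10 the shares were 79.8% and 9.66%. Olig2 had 64.4% between numerals and Myt1 53.2%. Tcf7l2 was divided, with 46.5% between numerals and 40.8% between populations. Nkx6-2 was the reverse of Myrf, with 8.44% between numerals and 68.2% between populations. The medians over all genes were 34.2% and 21.2%.

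**Figure D3:**
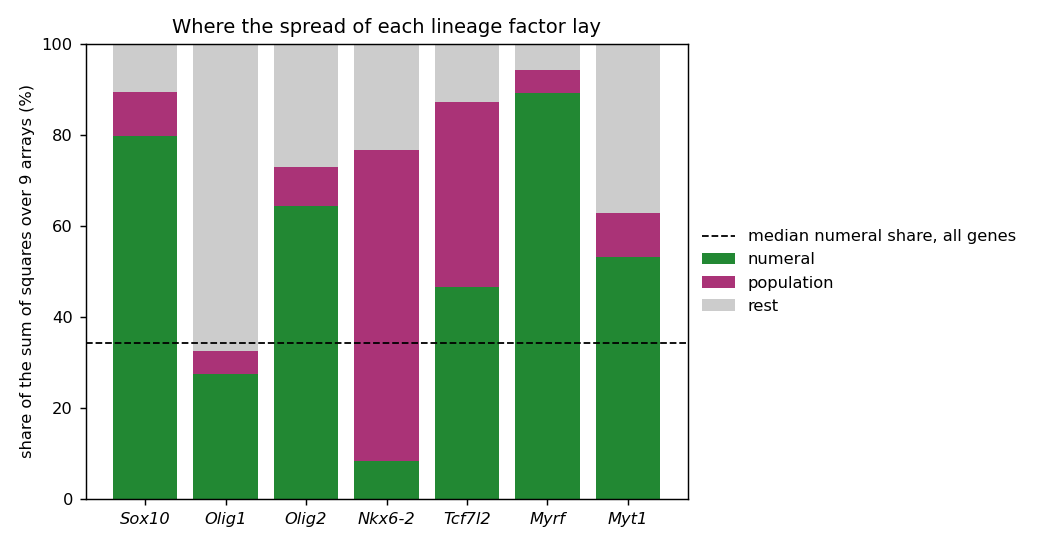
Share of the sum of squares over the 9 arrays (vertical axis, percent) that lay between numerals, between populations or in the rest, for each of the 7 lineage factors. The dashed line is the median numeral share of all genes, 34.2%; Myrf and Sox10 reach 89.2% and 79.8%, and Nkx6-2 is at 8.44%.

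The factors did not move as 1 block over the arrays. Sox10 and Myrf had r = 0.69 over the 9 arrays, and Sox10 and Tcf7l2 had r = 0.64. Olig2 ran opposite to Tcf7l2 with r = -0.76 and to Myrf with r = -0.66, and Myt1 ran opposite to Myrf with r = -0.76. These values describe 9 arrays that share populations and numerals.

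Genes with several probes gave a check within the array. The 2 Olig1 probes, both assigned to the same transcript, had r = 0.03 over the 9 arrays. The dimmer one had intensities of 5.48, 5.98 and 5.74 on O4 arrays I, II and III, 7.28, 6.99 and 5.25 on the NG2/A2B5 arrays, and 9.21, 7.88 and 5.14 on the NG2 arrays. Its highest value was on an NG2 array, and all O4 arrays lay within the NG2 range. Its O4 minus NG2 difference was -0.33 against 0.09 for the brighter probe, and neither passed the test. The sign of the Olig1 estimate in O4 minus NG2 therefore differed between the probes, and neither probe established a direction.

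The second Tcf7l2 probe followed the first with r = 0.82, and the fourth ran opposite with r = -0.71 but was dim on 8 of 9 arrays. The second probe differed by -0.74 in O4 minus NG2/A2B5 and by 0.86 in III minus II, the same directions as the first. On arrays I, however, it read 1.31 in O4 and 1.27 in NG2/A2B5, so O4 was not the lowest there. In NG2/A2B5 it was higher on II than on I, at 2.26 against 1.27. Its III arrays (1.71 to 2.95) and II arrays (0.74 to 2.26) overlapped. The third probe, below the array median on all 9 arrays, had r = 0.12 with the first and differed by 0.29 in O4 minus NG2/A2B5. The 2 Myt1 probes had r = 0.39, and the dimmer one was dim on 4 arrays.

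**Figure D4:**
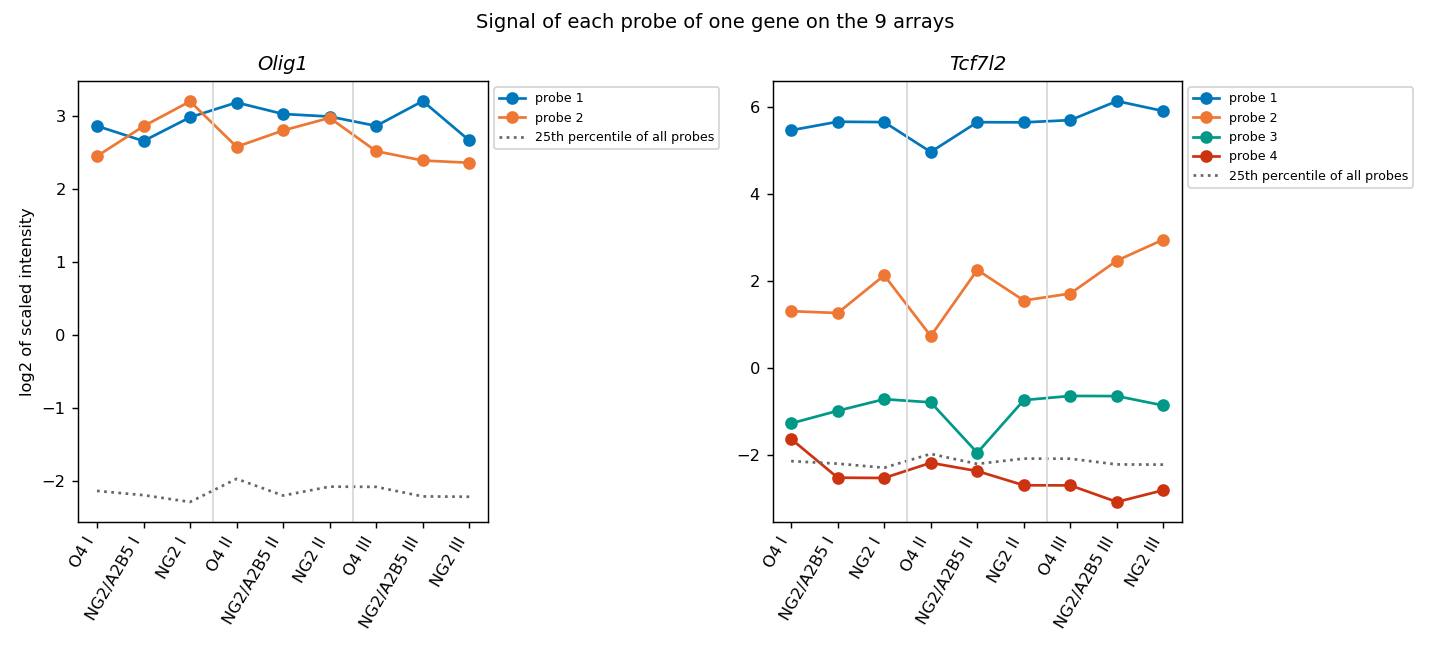
Log2 scaled intensity (vertical axis) of each probe of Olig1 and Tcf7l2 on the 9 arrays (horizontal axis, ordered by numeral). The 2 Olig1 probes cross, with r = 0.03, and the first and second Tcf7l2 probes run in parallel, with r = 0.82.

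Genes whose pattern over the 9 arrays was most like that of each factor were taken by Pearson r among 9785 genes with a value on all arrays and a mean above the 25th percentile. For Myrf these were Rnase12 (r = 0.979), Ypel3 (r = 0.976) and Txnip (r = 0.970), the last a thioredoxin-binding protein. For Sox10 they were Pxmp4 (r = 0.966), Ripor2 (r = 0.962) and Cyp2u1 (r = 0.954). For Tcf7l2 they were Nfat5 (r = 0.968), Adcyap1r1 (r = 0.961), which encodes the receptor of the neuropeptide PACAP, and Rtn1 (r = 0.940). Those of Nkx6-2 were Etv6 (r = 0.951), Timm13 (r = 0.927) and Dpf2 (r = 0.910). Those of Olig1 were Grm7, Meis2 and Ddhd1 (r from 0.888 to 0.916). Olig2 was most like Lsm3, Gart and Txn1 (r from 0.947 to 0.951), and Myt1 most like Wdr43, Ptp4a1 and Slc35e1 (r from 0.952 to 0.966). These values describe arrays that share populations and numerals and carry no test.

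Around these factors lie the other genes of the pathway, in 5 lists of 179 distinct genes of which 148 were measured. None of the 148 was called between any pair of populations. Between III and II, 13 of the 148 were called, 9 higher and 4 lower, beside 3.56% of all genes (1.64% higher and 1.92% lower). With any 1 array left out, 0 of the 13 remained called. With all probes tested 0 of the 13 remained called, with the mean of a gene's probes 1, which was Fa2h, and without the population term 9. The lists were chosen with earlier results of these data known, so their shares and medians describe the lists and test nothing. The limit given for the numerals holds here too. The counts below come from the full fit.

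Inhibitors of the lineage factors include the Id proteins, which trap helix-loop-helix partners, and the Notch and Wnt pathways. Of 27 genes 24 were measured, 11 higher and 13 lower on III than on II. Notch1, the receptor that holds progenitors back from differentiation, was 0.75 higher (SE 0.11, adjusted p = 0.0360), and its II arrays lay at 4.70 to 5.07 and its III arrays at 5.49 to 5.80. Hes5, a Notch target and repressor, was 1.56 higher (SE 0.23, adjusted p = 0.0373), but the probe was dim on 4 arrays and the other Hes5 probe differed by -0.22. Between populations the smallest F test p-values belonged to Myef2, which represses the Mbp gene, and Id2, with adjusted p of 0.801 and 0.951.

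Other lineage factors were measured for 37 of 49 genes, of which 16 were higher and 21 lower on III. The helix-loop-helix partner Tcf3 fell by 0.86 (SE 0.15, adjusted p = 0.0474) and the zinc-finger factor Klf6 fell by 0.94 (SE 0.17, adjusted p = 0.0492), with II arrays at 6.45 to 7.03 and III arrays at 5.76 to 5.82. Nfix and Tcf4 had the smallest F test p-values over populations in this list. Nfix was 5.89 ± 0.10 (SD, n = 3) in NG2, 6.34 ± 0.21 in O4 and 6.39 ± 0.11 in NG2/A2B5, with an adjusted F test p of 0.892. Tcf4, the helix-loop-helix partner of Olig2, was 5.78 ± 0.14 in NG2, 6.19 ± 0.09 in NG2/A2B5 and 6.22 ± 0.16 in O4, with an adjusted F test p of 0.902. NG2 was the lowest for both, and neither passed the test.

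Partners and cofactors, which include chromatin remodellers and the Groucho corepressors, were measured for 24 of 26 genes, with 4 higher and 20 lower on III than on II. Their median difference was -0.26 beside -0.08 over all genes, and 0 of 24 were called. The smallest F test p-values over numerals were those of the corepressor Tle3, with a difference of 0.65 (adjusted p = 0.0577), and the arginine methyltransferase Carm1, with -0.45 (adjusted p = 0.117). Over populations they were those of the remodelling ATPase Smarca4 and of Tle1, with adjusted F test p of 0.929 and 0.930.

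Of the list named targets in mature oligodendrocytes, 35 of 44 genes were measured, of which 20 were higher and 15 lower on III. Binding of Sox10 or Myrf at these genes was not examined. The median was 0.44, beside -0.08 over all genes, of which 43.1% were higher. Fa2h, which makes the hydroxylated lipids of myelin, was 2.32 higher (SE 0.22, adjusted p = 0.0225), with II arrays at 0.07 to 0.72 and III arrays at 2.44 to 3.08. Enpp2, which encodes autotaxin, was 2.07 higher (SE 0.33, adjusted p = 0.0445), the kinase Sgk2 was 1.67 higher (SE 0.23, adjusted p = 0.0344) and gelsolin, Gsn, was 0.87 higher (SE 0.15, adjusted p = 0.0479). The other Sgk2 probe, with a mean of -3.96, differed by -3.13, the opposite direction. The other Gsn probe, with a mean of -2.78, differed by only 0.07. Ndrg1, a stress-responsive gene of myelinating cells, fell by 2.72 (SE 0.22, adjusted p = 0.0209), from 3.10 to 4.40 on II arrays to 0.67 to 1.45 on III arrays. The structural myelin genes Mbp, Mag, Mog, Mobp and Cnp were measured, and none was called. Their means over the arrays were -2.26 for Mbp, -1.64 for Mog and -0.41 for Mobp, beside 3.66 for Mag and 7.64 for Cnp. The first 3 were thus read within a low signal, which limits what their probes can show. Of the 35 genes, 7 had a mean below the mean 25th percentile of the arrays. Over populations the smallest F test p-values were those of Hapln2 and Trim2, with adjusted p of 0.856 and 0.932.

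Of the list named targets in progenitors, 28 of 33 genes were measured, of which 17 were higher and 11 lower on III, with a median of 0.14. Binding of the factors at these genes was not examined either. The matrix proteoglycan Vcan was 1.02 higher (SE 0.13, adjusted p = 0.0302), the receptor Gpr37l1 was 1.17 higher (SE 0.17, adjusted p = 0.0360) and C1ql1 was 0.85 higher (SE 0.13, adjusted p = 0.0422). The cannabinoid receptor Cnr1 fell by 3.08 (SE 0.46, adjusted p = 0.0414), though its probe was dim on 5 of 9 arrays. Over populations Metrn and Cspg5 had the smallest F test p-values, with adjusted p of 0.951 and 0.955.

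**Figure D5:**
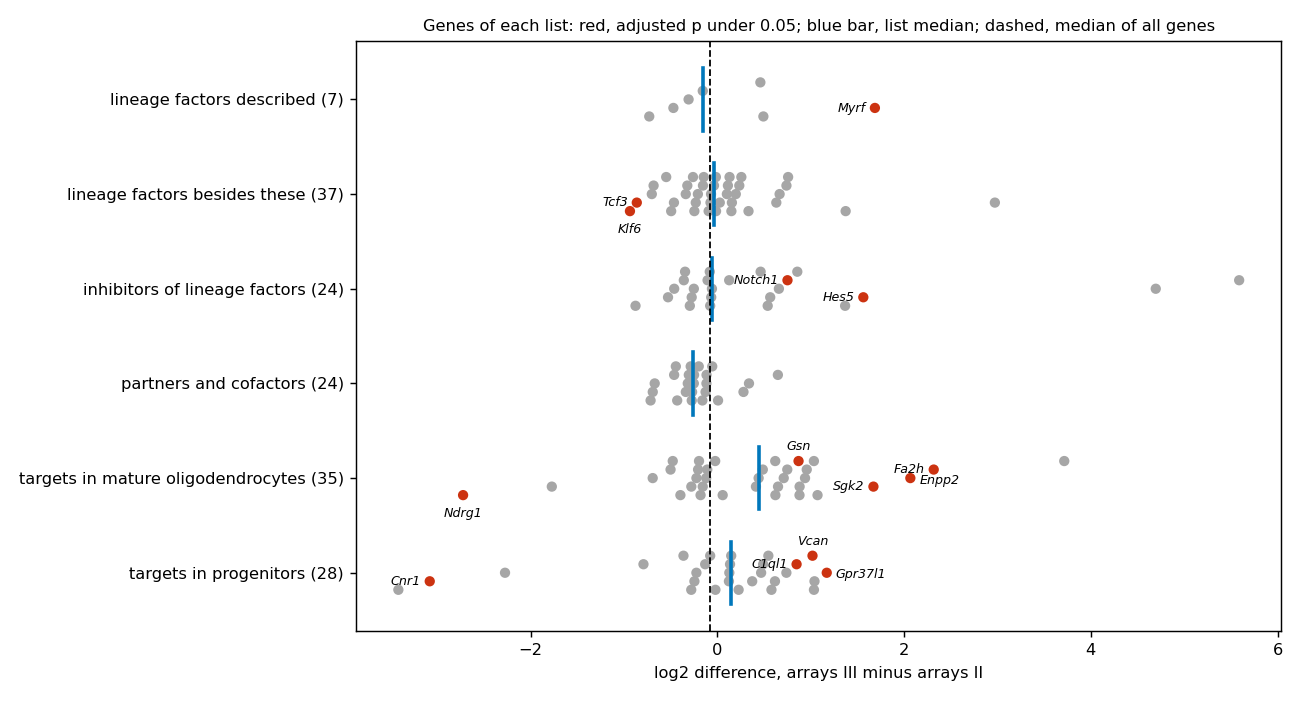
Log2 difference of arrays III minus arrays II (horizontal axis) for each measured gene of the 7 lineage factors and of the 5 pathway lists (vertical axis, number of genes in brackets). Red points passed an adjusted p of 0.05, blue bars are list medians and the dashed line is the median of all genes, -0.08. The median of targets in mature oligodendrocytes is 0.44. The lists were chosen with earlier results of these data known, so the medians are a description only.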

How the data were processed

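RNA of 3 cell populations was measured on 9 one-colour arrays. Per the labels' protocols, total RNA was amplified by 2 rounds of in vitro transcription, labelled with Cy5, and normalized with spiked synthetic RNA. The deposited values are scaled intensities on a linear scale; the scanner and software were not stated.

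Values coded -9999 were treated as missing, values at or below 0 were set to each array's smallest positive value (291 to 352 probes an array), and log2 was taken. Of the probes, 16865 carried 1 symbol and 165 several, and only the former were used. Symbols were updated by Entrez identifier in the RefSeq table of assembly GRCr8 (16836 probes matched, 1 changed). Each gene was represented by its probe with the highest mean, giving 12167 genes.

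Linear models were fitted over all 9 arrays in R 4.3.3 with limma 3.58.1, using lmFit and then eBayes, populations without further terms and numerals with population as a term. Residual degrees of freedom were 6 and 4. Two-sided p-values were adjusted over the whole table by the Benjamini-Hochberg method, with a threshold of 0.05, and intervals are 95%. The fitting code was tested on simulated data of 12025 genes, with 100 changed 2-fold and 100 changed 4-fold. In O4 minus NG2 it recovered 44% of the 2-fold and 71% of the 4-fold changes, with 8 false calls. In III minus II it recovered 33% and 65%, with 6 false calls. The simulated spread held no part for numerals, unlike the data, so changes between populations could be missed more often than this.

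The lineage factors and gene lists were chosen with earlier results of these data known. Outside the 7 factors, genes were named if they were called, if they had the 2 smallest F test p-values of their list over populations or over numerals, or if they were the 3 most like a factor. Normalization, floor, filter, probe choice, spread model, block, arrays fitted and left-out arrays were varied.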

Additional observations from a re-analysis of the deposited data

How the results depend on the processing

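Over 7 factors and 6 contrasts, other settings gave 714 values, of which 661 kept direction and side of the threshold, 5 gained a call, 10 lost one and 38 turned direction. No factor was called between populations under any setting run. The Myrf difference of III minus II kept its call under quantile normalization, the floor at the 25th percentile, the filter on genes under it, the mean of probes, trended robust variances and no population term; tested among all probes it was 1.69 with an adjusted p of 0.0807, and with 1 array left out it ranged from 1.45 to 1.87 with adjusted p from 0.0669 to 0.124 and was called in none of the 9 fits. Sox10 (0.46, adjusted p = 0.0263) and Tcf7l2 (0.49, adjusted p = 0.0257) in III minus II gained a call with trended robust variances. Myrf in II minus I, -1.14, gained one with the floor (adjusted p = 0.0283), the filter (0.0285) and trended robust variances (0.000848). With the mean of a gene's probes, Olig1 turned to -0.12 in O4 minus NG2, -0.081 in O4 minus NG2/A2B5, -0.039 in NG2/A2B5 minus NG2 and -0.17 in III minus I, and Tcf7l2 to -0.13 in NG2/A2B5 minus NG2. The causes were not tested.

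With 1 array left out, differences turned direction as follows, none of them called. In O4 minus NG2, Sox10 ranged from -0.24 to 0.10, Olig1 from -0.017 to 0.15, Olig2 from -0.059 to 0.29, Nkx6-2 from -0.029 to 0.53 and Myrf from -0.20 to 0.94. In O4 minus NG2/A2B5, Sox10 ranged from -0.075 to 0.27, Olig1 from -0.15 to 0.13, Olig2 from -0.092 to 0.44, Myrf from -0.21 to 0.60 and Myt1 from -0.41 to 0.070. In NG2/A2B5 minus NG2, Olig1 ranged from -0.038 to 0.24, Olig2 from -0.35 to 0.18, Tcf7l2 from -0.079 to 0.17, Myrf from -0.37 to 0.77 and Myt1 from -0.28 to 0.20. In III minus I, Olig1 ranged from -0.12 to 0.23, Nkx6-2 from -0.12 to 0.38 and Myt1 from -0.31 to 0.12.

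Counts of genes called were small between populations. O4 minus NG2 had 1, against 0 with the floor, the filter, trended robust variances or only the 6 arrays compared, 2 with the mean of probes or all probes, and 1 to 2 with an array left out. O4 minus NG2/A2B5 had 1, against 0 with the floor, filter or trended robust variances and 0 to 4 with an array left out. NG2/A2B5 minus NG2 had 0, against 1 with the mean of probes or all probes and 0 to 3 with an array left out. The F test had 1, against 0 with the floor, filter or trended robust variances, 2 with the mean of probes or all probes, and 1 to 4 with an array left out. III minus II had 433, against 1292 with the floor, 1215 with the filter, 136 with the mean of probes, 0 with all probes, 1884 with trended robust variances and 0 to 5 with an array left out. III minus I had 0, against 49, 25 and 312 with the floor, filter and trended robust variances and 0 to 2 with an array left out. II minus I had 28, against 404, 366 and 836 under those, 2 with the mean of probes, 0 with all probes, 63 without the population term and 0 to 3 with an array left out.

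Of the 148 pathway genes 13 were called in III minus II, against 30 with the floor, 27 with the filter, 41 with trended robust variances, 1 with the mean of probes and 0 with all probes.

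The numerals were checked as a pairing. Deviations from population means over 12025 genes correlated from 0.037 to 0.14 between the 9 pairs of arrays with the same numeral and from -0.11 to 0.0065 between the 18 others, and all 9 arrays correlated best with their own numeral, a hint from the data and not the design. With a fixed block for the numeral, 0 genes were called in each population contrast and in the F test. With a random block, 1 gene was called in O4 minus NG2, 1 in O4 minus NG2/A2B5, 0 in NG2/A2B5 minus NG2 and 1 in the F test. Neither block changed a call of a factor. Nkx6-2 and Olig2 lay below the array median on all 9 arrays, which limits what their single probes can show.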
